A study of Mus musculus with 8 samples.

Results

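The genes for the SMAD proteins and for both TGF-beta receptors were examined in isolated mouse gonadotropes, the pituitary cells that make the gonadotropins LH and FSH. The 10 members were chosen by symbol: *Smad1*, *Smad2*, *Smad3*, *Smad4*, *Smad5*, *Smad6*, *Smad7*, *Smad9*, *Tgfbr1* and *Tgfbr2*. Each had 1 entry among the 55523 entries of the count table. The cells came from pituitaries of Ad4BP-BAC-EGFP mice, which carry EGFP on a bacterial artificial chromosome with the *Nr5a1* (Ad4BP) gene region, and EGFP-positive cells were sorted before RNA extraction. All 8 samples had this genotype and were untreated as far as their labels say. There were 4 female samples (replicates 1 to 4) and 4 male samples, of which replicates 2 to 4 were compared with the females; male replicate 1, which the study excluded, is shown apart. Age, cycle stage and whether samples came from separate animals are not given in the labels, so p-values measure only the spread between these samples, which may be technical. The sort depends on activity of the transgene, so a gonadotrope without EGFP would be missed.

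Ligands of the TGF-beta superfamily bind a type II receptor kinase, which activates a type I receptor kinase. The type I receptor then phosphorylates receptor-regulated SMADs, which join the common partner SMAD4, enter the nucleus and act on target genes. SMAD2 and SMAD3 carry the signals of activins and TGF-betas, SMAD1, SMAD5 and SMAD9 carry those of BMPs, and SMAD6 and SMAD7 inhibit the pathway. In gonadotropes, activin is known to induce *Fshb* through SMAD3, SMAD4 and the forkhead factor FOXL2, while inhibin and follistatin oppose activin.

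The total was between 18774578 and 31302588 counts per sample, so a floor of 3 counts lay between 0.0921 and 0.146 CPM (a count relative to its library, per 1e6 reads, with library sizes scaled by the TMM method over all 8 samples). Such floors cover counting error only, since PCR reads without molecular identifiers are not independent molecules. The cells were checked against 5 gonadotrope markers (*Lhb*, *Fshb*, *Cga*, *Gnrhr* and *Nr5a1*), none of which was at 0 in any sample, and whose summed level was 21488 to 34863 CPM in the females, 67930 to 75717 CPM in the males compared and 28423 CPM for male replicate 1. *Nr5a1*, whose regulatory region drives the sort, had 16.3 CPM in the excluded male replicate 1, whereas males 2 to 4 had 584 to 801 CPM and the females 862 to 1266 CPM, so that it went against the marker sum. The 7 markers of other pituitary hormone cells (*Gh*, *Prl*, *Pomc* and others) summed to 36423 to 98150 CPM in the females and 93870 to 187005 CPM in the males compared, and *Pou1f1* of this list was higher in males past the threshold of the sex comparison (edgeR adjusted p under 0.05). In male replicate 1 they summed to 50646 CPM. In every sample this sum was above the gonadotrope sum, and the share of gonadotropes among the sorted cells was not measured. The 5 stem cell markers summed to 280 to 434 CPM in the females and 156 to 198 CPM in the males compared, and *Sox9* of this list was past the threshold, lower in males. The 8 endothelial, 8 stromal, 6 leukocyte and 5 erythroid markers had no gene past the threshold and summed to at most 682, 514, 33.8 and 580.1 CPM in the 7 samples compared, in 5 of which the leukocyte marker *Aif1* was at 0. The stromal sum did not overlap between the sexes, at 235 to 260 CPM in the females and 264 to 514 CPM in the males compared, with the pericyte marker *Rgs5* higher and the collagens *Col1a1* and *Col3a1* lower in each of these males. In sorted bulk RNA, fewer cells of a type and less RNA per cell cannot be told apart.

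The promoters of 3 members are shown because the results turn on their genes: *Smad3* and *Smad6* had the largest male-to-female differences in fitted log2 fold change of the members and are neighbours on the minus strand of chromosome 9, and *Tgfbr1* had the widest spread between samples and has 2 RefSeq starts. Each line gives the 250 bases before a RefSeq start on GRCm38.p6 (mm10), 5′ to 3′ on the strand of the gene. Capitals mark matches to GGGCGG (the GC box bound by SP1-type factors) or CAGAC (the core of a SMAD-binding element), on either strand.
Smad3 (chr9:63757995-63758244, minus strand): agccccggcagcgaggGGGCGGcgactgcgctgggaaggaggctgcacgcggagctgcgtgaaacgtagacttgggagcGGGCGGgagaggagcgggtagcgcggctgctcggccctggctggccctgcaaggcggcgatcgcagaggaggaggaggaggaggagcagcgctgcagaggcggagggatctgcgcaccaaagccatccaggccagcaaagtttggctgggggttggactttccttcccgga
Smad6 (chr9:64022060-64022309, minus strand): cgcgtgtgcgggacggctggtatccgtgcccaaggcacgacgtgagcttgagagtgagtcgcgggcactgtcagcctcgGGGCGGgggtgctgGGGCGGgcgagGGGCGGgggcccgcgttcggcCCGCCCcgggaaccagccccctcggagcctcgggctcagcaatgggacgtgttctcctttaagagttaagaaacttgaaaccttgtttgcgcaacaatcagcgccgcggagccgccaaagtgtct
Tgfbr1 start 1 (chr4:47352972-47353221, plus strand): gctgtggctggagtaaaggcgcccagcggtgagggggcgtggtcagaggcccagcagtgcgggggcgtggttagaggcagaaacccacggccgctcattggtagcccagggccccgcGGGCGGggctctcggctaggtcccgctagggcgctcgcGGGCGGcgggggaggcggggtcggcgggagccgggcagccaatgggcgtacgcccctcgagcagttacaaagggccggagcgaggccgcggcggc
Tgfbr1 start 2 (chr4:47385966-47386215, plus strand): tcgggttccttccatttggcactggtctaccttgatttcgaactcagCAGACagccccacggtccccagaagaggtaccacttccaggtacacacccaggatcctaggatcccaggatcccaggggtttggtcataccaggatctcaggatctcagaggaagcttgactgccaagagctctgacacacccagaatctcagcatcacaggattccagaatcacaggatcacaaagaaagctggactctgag
The *Smad3* stretch held GGGCGG 2 times, starting 234 and 171 bases before the start. The *Smad6* stretch held it 4 times, of which 1 was on the opposite strand. The first start of *Tgfbr1* had 2 copies, 133 and 95 bases before it, and no CAGAC. Its second start, inside the annotated gene, had no GGGCGG and 1 CAGAC, 203 bases before it. Of all 32851 RefSeq promoters of this length, 32.74% held GGGCGG and 42.19% held CAGAC, against 8 and 3 of the 10 promoters listed for 7 members (*Smad2*, *Smad4* and *Smad7* are not among them). Of these promoters, 3 belong to *Smad5*, of which 2 overlap, and by gene 6 and 3 of the 7 members held the motifs. The core AAGGTCA of an NR5A1 site was in 4.079% of all promoters and in none of the 10. A match is a description of the letters and not a site of binding. None of the stretches printed above overlapped an annotated exon of its gene.

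The first question was how the members differed in level between male and female gonadotropes. With edgeR's quasi-likelihood test and Benjamini-Hochberg adjustment at 0.05, 0 of the 10 members passed, against 2.34% of the 20152 genes tested (0.983% higher and 1.35% lower in males). At an unadjusted p under 0.05 there were 2 members, *Smad3* and *Smad4*, against 19.9% of genes, and with DESeq2 1 member passed, *Smad3*, against 11.7% of genes. The samples of the sexes did not overlap for 2 members, again *Smad3* and *Smad4*, both lower in males. That share of members is close to the 22.3% of all genes tested without overlap, and 10.8% of genes were without overlap and lower in males. All 10 members passed the filter on low counts. The fitted difference was toward lower values in males for 7 of 10 members, with a median log2 fold change of -0.28 over the members and -0.03 over all genes tested. The plot of levels by sample gives these values together.

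**Figure D1:**
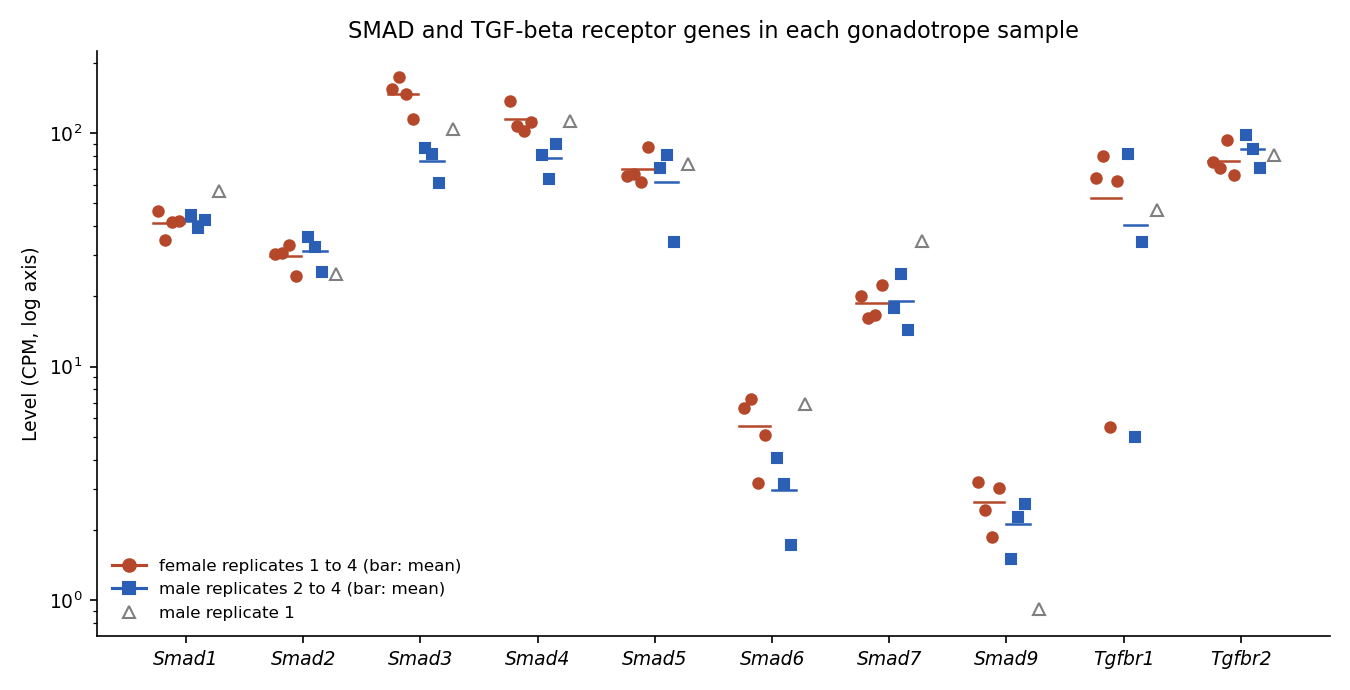
Level of each member (CPM, log axis) in female replicates 1 to 4 (circles), male replicates 2 to 4 (squares) and male replicate 1 (open triangles), with bars at the mean of the females and of male replicates 2 to 4. The sexes do not overlap for *Smad3* and *Smad4*, and *Tgfbr1* is near 5 CPM in replicate 3 of each sex.

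*Smad3*, the receptor-regulated SMAD through which activin acts on *Fshb*, lies at chr9:63646767-63757994 on the minus strand (GENCODE M21, mm10). It was measured at 154, 173, 147 and 115 CPM in female replicates 1 to 4, and at 85.9, 81.5 and 60.9 CPM in male replicates 2 to 4. Every female value was above every male value, and male replicate 1, at 104 CPM, lay between the groups. The means were 147 ± 24.4 CPM in females (SD, n = 4) and 76.1 ± 13.3 CPM in males (SD, n = 3), a fitted level 1.98-fold higher in females. The log2 fold change, male over female, was -0.98 (SE 0.20, 95% confidence interval -1.44 to -0.52), with an adjusted p of 0.0529 in edgeR, just outside the threshold. The same difference passed with DESeq2 (adjusted p 0.000537), with edgeR on library sizes alone (0.0367) and with a minimum of 10 counts in every sample (0.0422). It had an adjusted p between 0.0605 and 0.156 when a replicate was left out and of 0.191 with male replicate 1 included, where the log2 fold change was -0.83. In the same males the sum of gonadotrope markers, most of it from *Cga* and *Fshb*, was higher, *Nr5a1* was below every female value (edgeR adjusted p 0.130) and the sum of stem cell markers was lower. The sum for other pituitary hormone cells was also higher in these males, with an overlap at 93870 to 98150 CPM, and so was the stromal sum, without overlap. The part of these markers in this difference was not tested.

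*Smad2*, which carries the same activin and TGF-beta signals, was 30.2, 30.8, 33.1 and 24.5 CPM in the females and 35.9, 32.7 and 25.3 CPM in male replicates 2 to 4. The groups overlapped almost fully. The log2 fold change was 0.04, with a 95% confidence interval from -0.38 to 0.46 that leaves out a difference of the size fitted for *Smad3* (edgeR adjusted p 0.930). Male replicate 1 was at 25.0 CPM, slightly below the other males. *Smad2* lies at chr18:76241580-76310963.

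*Smad4*, the common partner of all receptor-regulated SMADs, lies at chr18:73639009-73703780. It was 138, 107, 102 and 111 CPM in the females and 80.5, 63.6 and 89.6 CPM in male replicates 2 to 4, again without overlap. The means were 114 ± 16.0 (SD, n = 4) and 77.9 ± 13.2 CPM (SD, n = 3). The fitted level was 1.5-fold higher in females, with a log2 fold change of -0.58 (SE 0.18, interval -1.01 to -0.16), but edgeR's adjusted p was 0.141 and that of DESeq2 0.0586. Male replicate 1, at 113 CPM, was inside the female range. *Smad4* was therefore lower in each of the 3 males compared, by a difference that did not pass the test over all genes.

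**Figure D2:**
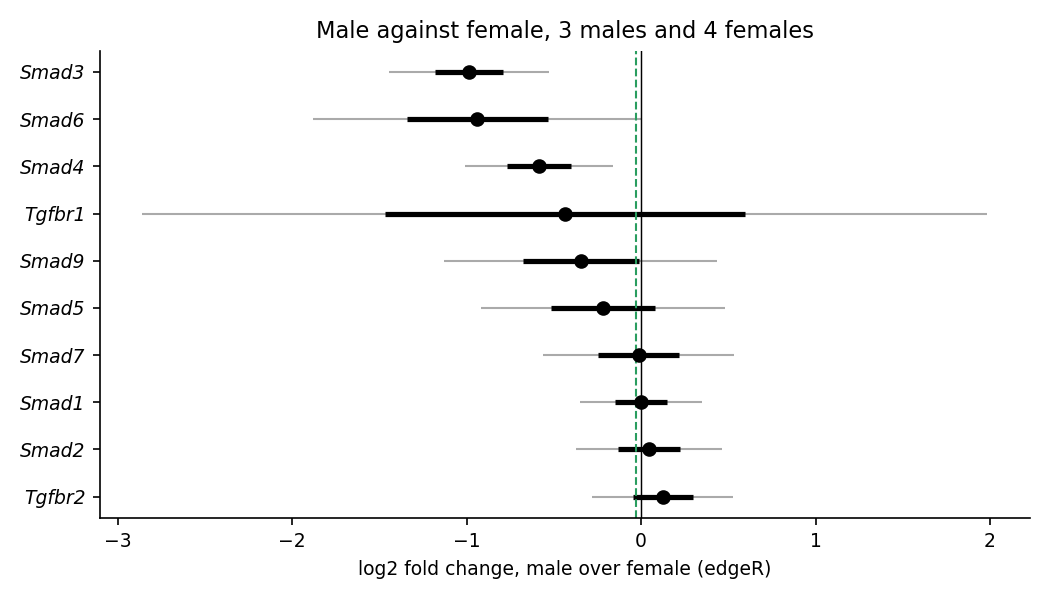
Log2 fold change of males (replicates 2 to 4) over females (replicates 1 to 4) for each member, from edgeR, with black bars for 1 standard error, grey lines for the 95% confidence interval and a dashed green line at the median of all genes tested (-0.03). The intervals of *Smad3* and *Smad4* lie below 0, that of *Smad6* reaches 0.01, and that of *Tgfbr1* spans from -2.86 to 1.99.

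The SMADs of the BMP branch showed no such separation of the sexes. *Smad1*, at chr8:79338395-79399518, was 46.6, 34.8, 41.6 and 42.0 CPM in the females and 44.6, 39.3 and 42.5 CPM in the males compared. Its means were 41.2 ± 4.86 (SD, n = 4) and 42.1 ± 2.65 CPM (SD, n = 3), and the interval of its log2 fold change ran from -0.35 to 0.35. *Smad5*, at chr13:56703010-56742377, was 65.3, 66.8, 61.7 and 86.9 CPM in the females and 71.2, 80.3 and 34.3 CPM in the males. Male replicate 4 had the lowest *Smad5* value of the 7 samples, and without it the log2 fold change was 0.07 in place of -0.22. The locus of *Smad5* is shared with *Gm27301*, which had at most 4 counts in any sample. *Smad9*, at chr3:54755582-54801257, was the lowest member, with 50 to 75 counts in the females and 38 to 60 in the males compared, or 2.64 ± 0.61 (SD, n = 4) and 2.12 ± 0.56 CPM (SD, n = 3). None of these genes passed the test, with edgeR adjusted p of 0.999 for *Smad1*, 0.760 for *Smad5* and 0.642 for *Smad9*.

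The inhibitory SMADs differed from each other in their pattern. *Smad6*, which acts mainly on BMP receptors, was 6.67, 7.27, 3.19 and 5.10 CPM in the females and 4.06, 3.13 and 1.73 CPM in male replicates 2 to 4. Female replicate 3 overlapped the males. The log2 fold change was -0.94, close to that of *Smad3*, but rested on 38 to 156 counts per sample, with an SE of 0.40, an interval from -1.88 to 0.01 and an edgeR adjusted p of 0.254. *Smad6* (chr9:63953076-64022059) is separated from *Smad3* by 195081 bases. Between them lies *Gm18541*, a processed pseudogene, whose fitted difference had the opposite sign: 2.005 ± 0.53 CPM in females (SD, n = 4) and 4.52 ± 0.67 CPM in males (SD, n = 3), with a log2 fold change of 1.14 and an edgeR adjusted p of 0.0872. *Gm18541* was looked up after its neighbours' values were seen.

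*Smad7*, the inhibitor of both branches and itself a known target of SMAD signalling, lies at chr18:75367529-75395935. It was 19.97, 16.1, 16.7 and 22.3 CPM in the females and 17.8, 25.0 and 14.3 CPM in the males compared. The lowest and the highest of the 7 values were both male. The log2 fold change was -0.01 (interval -0.56 to 0.53, edgeR adjusted p 0.984). Male replicate 1, at 34.4 CPM, was above all 7.

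*Tgfbr1*, the type I receptor of the TGF-betas (ALK5), lies at chr4:47353222-47414931. It was 64.0, 79.7, 5.52 and 62.3 CPM in female replicates 1 to 4 and 81.4, 5.02 and 34.3 CPM in male replicates 2 to 4. Replicate 3 of each sex stood apart, with 180 counts in the female and 133 in the male, while the other 5 samples had 755 to 2065 counts. The lowest of those 5 was 6.21-fold above the female replicate 3, and their mean was 64.3 ± 18.9 CPM (SD, n = 5). The ratio of the highest to the lowest of the 7 values was 16.2, and 8.07% of the 10449 entries with a mean of at least 10 CPM had a ratio as wide, the median entry having 2.003. The log2 fold change between the sexes was -0.44 (SE 1.03), and its interval from -2.86 to 1.99 shows that these samples give almost no precision on a difference in *Tgfbr1* (edgeR adjusted p 0.870). Without male replicate 3 it was 0.09, without female replicate 3 it was -0.79, without male replicate 2 it was -1.45, and without replicate 3 of both sexes it was -0.28 (adjusted p 0.805).

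Entries beside *Tgfbr1* on chromosome 4, chosen after its values were seen, did not repeat this split. *Alg2*, a mannosyltransferase of glycan assembly, was 58.1, 75.2, 83.8 and 379 CPM in the females and 516, 497 and 79.9 CPM in male replicates 2 to 4, and *Sec61b*, a subunit of the protein channel of the endoplasmic reticulum, was 10.2, 229, 204 and 14.9 CPM in the females and 183, 202 and 14.6 CPM in the males. Both of these entries varied widely between samples of the same sex, but in other samples than *Tgfbr1*. *Col15a1*, a collagen gene on the other side, stayed between 13.9 and 29.0 CPM in the 7 samples. The table was partly named by assembled loci, and whether assembly or counting sets such splits was not tested.

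*Tgfbr2*, the type II receptor of the TGF-betas, lies at chr9:116084293-116175360. It was 75.4, 70.9, 93.0 and 65.9 CPM in the females and 98.4, 85.9 and 70.9 CPM in the males compared, with overlapping groups. The log2 fold change was 0.13 (SE 0.17, interval -0.28 to 0.53, edgeR adjusted p 0.761). Unlike *Tgfbr1*, it was among the evenest members, with a ratio of 1.49 between the highest and the lowest sample. In replicate 3, where *Tgfbr1* was low, *Tgfbr2* was the highest of the females and the middle of the 3 males.

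Levels of different members were compared per kilobase of merged annotated exon. On this scale the mean over the 7 samples was highest for *Smad4*, at 26.6 ± 6.42 CPM per kilobase (SD, n = 7), followed by *Smad3* at 21.1 ± 7.65, *Tgfbr2* at 9.78 ± 1.52 and *Smad5* at 8.98 ± 2.26. *Tgfbr1* was at 7.26 ± 5.005 and *Smad1* at 6.65 ± 0.61 CPM per kilobase. Below them came *Smad7* at 4.17 ± 0.83, *Smad2* at 3.46 ± 0.47, *Smad6* at 1.39 ± 0.63 and *Smad9* at 0.450 ± 0.113. In all 7 samples *Smad3* was above *Tgfbr2*, *Smad1* above *Smad7*, *Smad2* above *Smad6* and *Smad6* above *Smad9*, each by a mean log2 ratio larger than its SD. The other neighbours in the order did not differ beyond their spread: *Smad4* was above *Smad3* in 6 of 7 samples, by a log2 ratio of 0.39 ± 0.41 (SD, n = 7). Within each sex the order was the same except that *Smad5* was above *Tgfbr2* in the female means and *Smad1* above *Tgfbr1* in the male means. With the longest transcript as the length, *Smad1* moved up to rank 3, at 11.0 CPM per kilobase.

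**Figure D3:**
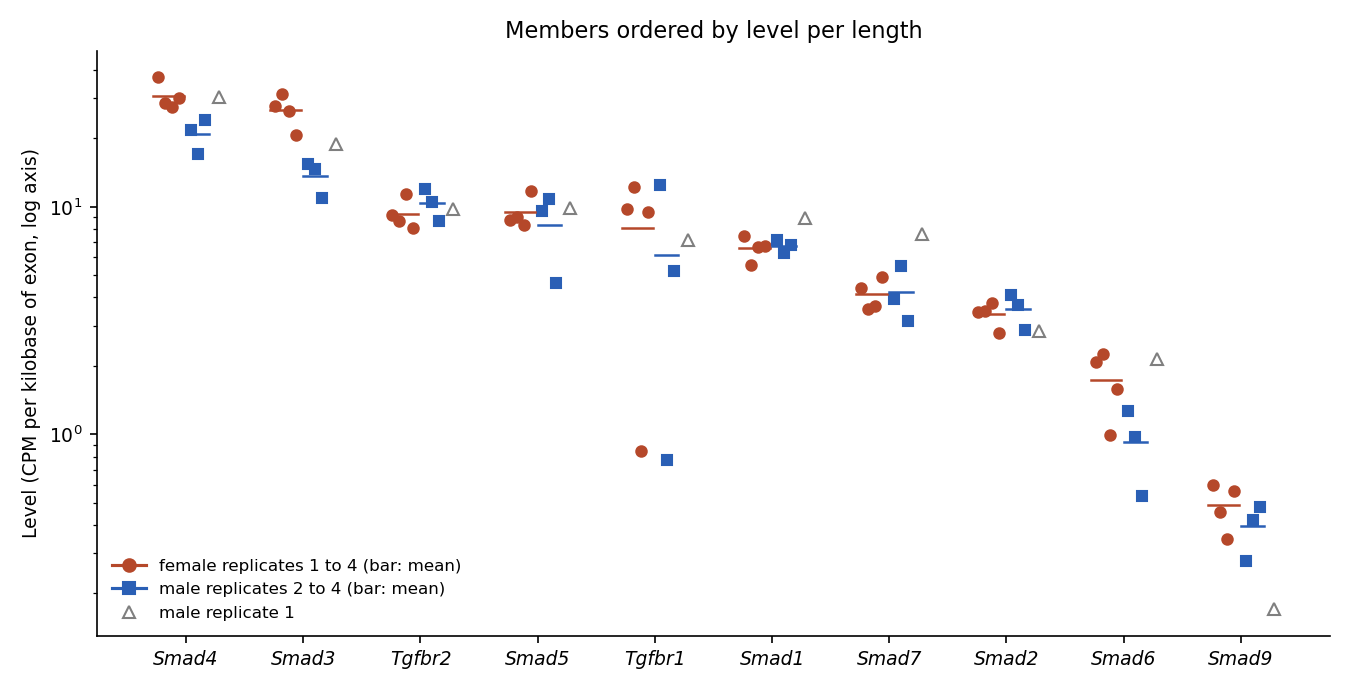
Level per kilobase of merged exon (log axis) of each member, ordered by the mean over the 7 samples compared, with the symbols and bars of the plot of levels by sample. *Smad4* and *Smad3* lead the order, *Smad6* and *Smad9* close it, and *Tgfbr1* would stand at 9.84 CPM per kilobase over the 5 samples without replicate 3.

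Ratios within a sample do not depend on its scaling and are given as a description, with no test. The ratio of *Smad3* to *Smad2* per length was 8.08, 8.92, 7.01 and 7.42 in the females and 3.797, 3.95 and 3.81 in male replicates 2 to 4. The mean of the 3 males was 3.85 ± 0.0872 (SD, n = 3), and the lowest female was at 7.01. Male replicate 1, at 6.61, was nearer to the females. The summed BMP-branch SMADs (*Smad1*, *Smad5* and *Smad9*) over the summed activin-branch SMADs (*Smad2* and *Smad3*) gave 0.538, 0.432, 0.506 and 0.809 in the females and 0.868, 0.951 and 0.856 in the males, with 0.878 in male replicate 1. On this ratio the males were above every female, by a small margin over female replicate 4. Inhibitory SMADs over *Smad4* overlapped between the sexes, at 0.170 to 0.218 in the females and 0.153 to 0.379 in the males. *Tgfbr2* over *Tgfbr1* was 13.4 in female replicate 3 and 13.7 in male replicate 3, and between 0.710 and 1.65 in the other 5 samples. *Smad3* made up 31.9% of the per-length SMAD total in females and 23.2% in males, on average, while the share of *Smad4* was 37.0% and 36.0%.

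**Figure D4:**
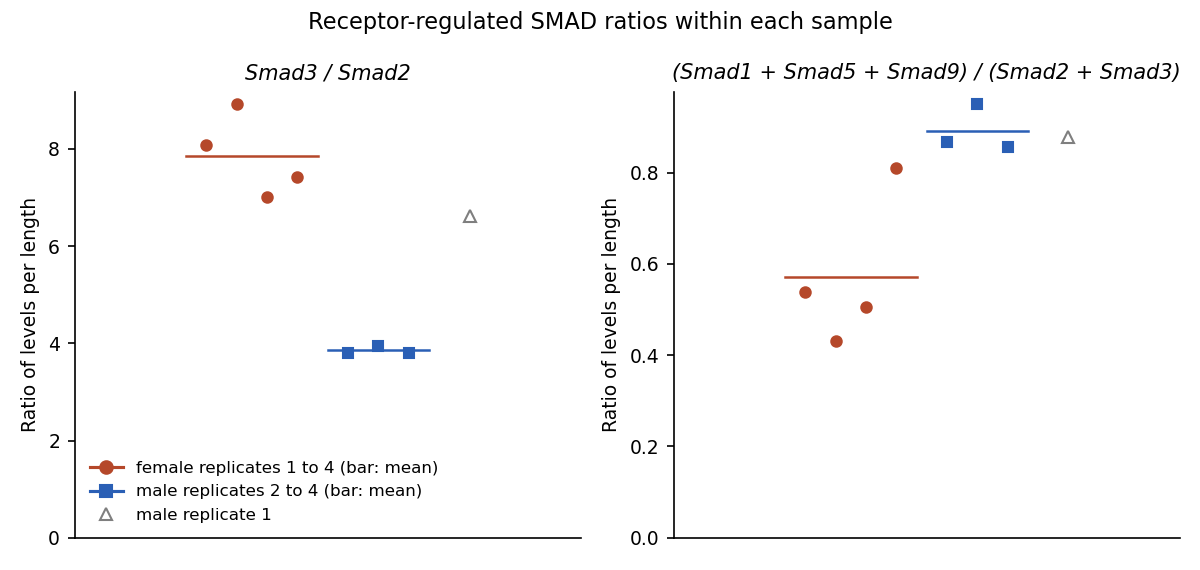
Ratios of per-length levels within each sample: *Smad3* over *Smad2* on the left and BMP-branch over activin-branch SMADs on the right, for female replicates 1 to 4 (circles), male replicates 2 to 4 (squares) and male replicate 1 (triangle), with bars at the means. Males 2 to 4 sit at 3.797 to 3.95 on the left, below all females, and at 0.856 to 0.951 on the right, above all females.

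The 3 genes whose profile over the 7 samples was most like that of *Smad3*, by the root mean square difference of centred log2(CPM + 1) among 9785 genes of at least 10 CPM, were *St3gal4*, a sialyltransferase (0.114), *Inha*, the alpha subunit of inhibin (0.115), and *Vav3*, a guanine nucleotide exchange factor (0.134), against a median of 0.638. Since *Smad3* separates the sexes, so do its nearest profiles. *Inha* was 22.3, 25.6, 20.4 and 19.5 CPM in the females and 13.1, 10.3 and 7.99 CPM in male replicates 2 to 4. In male replicate 1, which took no part in the measure, *Inha* was 64.4 CPM, above all 7, while *Smad3* was between the groups.

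The next question was how the rest of the pathway stood beside the members. Of 127 pathway gene symbols on 7 lists, 126 were in the table, the other being an older symbol of a listed gene. Of these, 103 were tested, of which 5 rose and 2 fell in males relative to females, or 6.80% against 2.34% of all genes tested. The lists were compiled with earlier results of these data known, so this share is no independent evidence. Among 18 ligands tested of 33 (list median log2 fold change -0.44), *Inhbb*, the beta B subunit of activin and inhibin, rose from 55.7 ± 6.29 CPM in females (SD, n = 4) to 174 ± 54.5 CPM in males (SD, n = 3), with a log2 fold change of 1.61 and an edgeR adjusted p of 0.0295. *Gdf11*, a ligand of the activin branch, fell from 91.3 ± 15.3 (SD, n = 4) to 23.1 ± 2.02 CPM (SD, n = 3), by 2.01 on the log2 scale (SE 0.18, edgeR adjusted p 0.00875). None of its male values reached the female range, and male replicate 1 was at 35.5 CPM. *Inha* had a log2 fold change of -1.10, with an edgeR adjusted p of 0.0513 (0.000219 with DESeq2). *Bmp1* and *Bmp6*, lower in males, and *Gdf9*, higher in males, also passed with DESeq2 (adjusted p 0.0238, 0.00658 and 0.0124) but not in edgeR. These ligands were named after their values were seen, and 11.7% of all genes tested passed with DESeq2.

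The receptors beside *Tgfbr1* and *Tgfbr2* gave no gene past the threshold among 9 tested of 10 (median -0.17). *Acvr1b*, the type I receptor of activin (ALK4), was 38.2 ± 7.16 CPM in females (SD, n = 4) and 20.01 ± 4.01 CPM in males (SD, n = 3), without overlap, with a log2 fold change of -0.97 and an edgeR adjusted p of 0.0735 (0.0031 with DESeq2). The type II receptors *Acvr2a*, *Acvr2b* and *Bmpr2* had log2 fold changes of -0.17, -1.51 (-0.48 without female replicate 2) and 0.40, with edgeR adjusted p of 0.589, 0.336 and 0.203, and the BMP receptor *Bmpr1a* had -0.09 (0.915). *Bmpr2* was also without overlap, but higher in males (50.0 to 64.6 CPM in the females, 70.1 to 84.9 CPM in the males compared). *Acvrl1* of this list was without overlap and lower in males, while 22.3% of all genes tested were without overlap. Of the co-receptors, 9 of 12 were tested and none passed in edgeR (median 0.19). With DESeq2 1 of them passed, against 11.7% of all genes tested. This was *Ltbp4*, a binding protein of latent TGF-beta named here after its values were seen. It had 59.9 to 110 CPM in the females and 27.6 to 39.6 CPM in the males compared (edgeR adjusted p 0.0754, DESeq2 0.00423). *Tgfbr3* (betaglycan) and *Tgfbr3l*, which take part in inhibin action, were at 218 ± 40.4 and 2140 ± 357 CPM in females (SD, n = 4) and 255 ± 34.3 and 2851 ± 549 CPM in males (SD, n = 3), with log2 fold changes of 0.19 and 0.38.

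Extracellular antagonists held the widest difference of the pathway genes tested. Of 11 tested of 14 (median 0.68), *Grem1*, a BMP antagonist, was 0.342 to 1.04 CPM in the females and 264 to 346 CPM in male replicates 2 to 4, with 88.9 CPM in male replicate 1. Its log2 fold change was 8.64 (SE 0.44, edgeR adjusted p 0.000826). *Bmper*, a BMP-binding regulator, rose from 6.77 ± 1.78 (SD, n = 4) to 51.2 ± 9.28 CPM (SD, n = 3), with an edgeR adjusted p of 0.00885. *Fstl1*, higher in males and named after its values were seen, passed with DESeq2 (adjusted p 0.0148) but not in edgeR (0.0921).

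Among SMAD partners and corepressors, 17 of 18 were tested (median -0.24) and *Tgif1*, a corepressor of SMAD2 and SMAD3, fell in males, from 116 ± 11.9 (SD, n = 4) to 70.4 ± 3.41 CPM (SD, n = 3), with a log2 fold change of -0.75 (edgeR adjusted p 0.0457). *Foxl2*, the partner of SMAD3 at *Fshb*, was 94.6 ± 15.3 CPM in females (SD, n = 4) and 49.8 ± 13.9 CPM in males (SD, n = 3), without overlap, with an edgeR adjusted p of 0.0778 (0.00572 with DESeq2). Of the 26 ubiquitin ligases, deubiquitinases, phosphatases and adaptors that set SMAD turnover and activity, all were tested and none passed in edgeR (median -0.0037). With DESeq2 *Usp9x* and *Zfyve9* passed (adjusted p 0.0109 and 0.0213), against 11.7% of all genes tested. Among response genes, 18 of 19 symbols were in the table and tested (median 0.29), the other being *Ctgf*, an older symbol of the tested *Ccn2*. *Fshb*, the hormone subunit that activin induces, rose in males from 1402 to 5699 CPM to 16894 to 30905 CPM, with a log2 fold change of 3.13 and an edgeR adjusted p of 0.0449. *Cdkn2b*, a cell cycle inhibitor and TGF-beta target, rose from 7.34 ± 1.62 (SD, n = 4) to 23.6 ± 4.29 CPM (SD, n = 3), with an edgeR adjusted p of 0.0280. The BMP targets *Id1*, *Id2* and *Id3* had log2 fold changes of -0.28, -0.49 and -0.71, and none passed (edgeR adjusted p 0.864, 0.629 and 0.441). *Id4*, added after its values were seen, was 71.0 to 128 CPM in the females and 44.6 to 50.0 CPM in the males compared, with a log2 fold change of -0.96 and an edgeR adjusted p of 0.0776 (0.00634 with DESeq2).

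**Figure D5:**
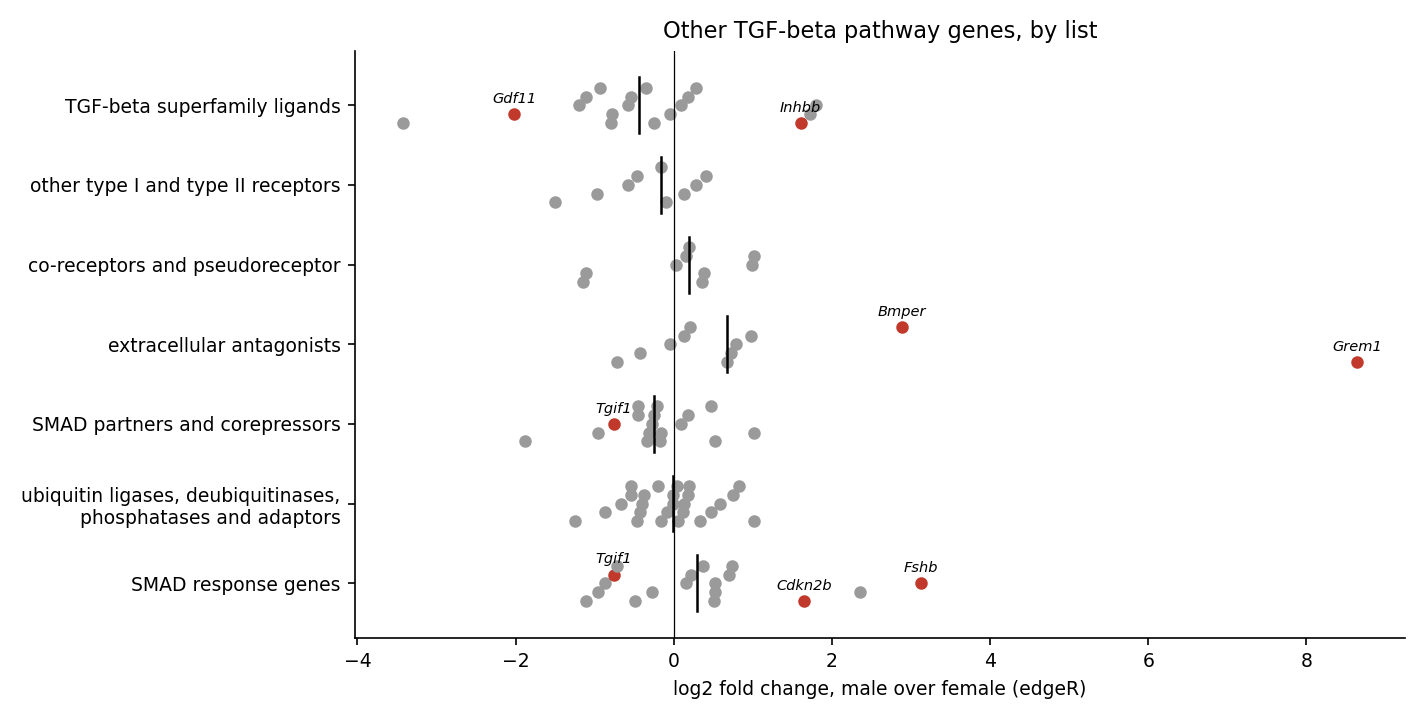
Log2 fold change of males over females (edgeR) for the pathway genes tested, 1 row per list, with red points past the threshold of 0.05, grey points not past it and black bars at the list medians. The points past the threshold range from -2.01 (*Gdf11*) to 8.64 (*Grem1*), and *Tgif1* stands in 2 lists.

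Of these 7 calls, *Grem1*, *Gdf11* and *Bmper* passed whichever of the 7 samples was left out. *Tgif1* passed in none of these fits, with an edgeR adjusted p from 0.0637 to 0.156. *Cdkn2b* passed only without female replicate 2 (0.0335), *Fshb* only without female replicate 4 (0.0325) and *Inhbb* only without male replicate 4 (0.0204), and in their other fits the highest values were 0.0925, 0.135 and 0.0974. The direction of all 7 was the same in every fit.

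Male replicate 1 was outside the range of the other males for 7 of 10 members, as it was for 69.9% of all genes tested. It was above them for *Smad1*, *Smad3*, *Smad4*, *Smad6* and *Smad7*, below them for *Smad2* and *Smad9*, and inside their range for *Smad5*, *Tgfbr1* and *Tgfbr2*. Its *Smad1* (56.2 CPM) and *Smad7* (34.4 CPM) were above all 7 other samples, and its *Smad9* (0.917 CPM, 21 counts) was below them all, so that 3 of 10 members were outside all 7, against 39.8% of genes tested. For *Smad4* and *Smad6*, at 113 and 6.90 CPM, it lay in the female range. Of the other pathway genes, it was within the range of males 2 to 4 for *Tgif1* (71.4 CPM) and *Inhbb* (129 CPM), but within the female range for *Acvr1b* (33.9 CPM), *Foxl2* (99.2 CPM) and *Cdkn2b* (6.37 CPM). As a single sample it allows no test.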

How the data were processed

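RNA of EGFP-positive sorted cells was sequenced in 8 samples with a low-input library kit. The authors deposited unnormalized read counts per gene in a single table, and the submitters' processing notes name cutadapt, STAR and featureCounts with mm10 (GRCm38). Of the entries, 28933 carry names of the MSTRG form, which transcript assembly gives; that step and the annotation are not given in the sources used here. Counts were tested with edgeR 4.0.16 in R 4.3.3 (quasi-likelihood, TMM, filterByExpr, Benjamini-Hochberg over 20152 genes, threshold 0.05), as males 2 to 4 against all 4 females, since the study left out male replicate 1. The method was run on simulated data with planted changes larger than the fitted change of any member. That run does not bear on its power at the sizes reported for the members. Lengths and positions came from GENCODE M21, and promoters from RefSeq (GRCm38.p6). Named genes were the 10 members, the pathway genes past the threshold (at most 6 a list), 11 pathway genes taken whatever their values, and the 3 profiles most like the member with the lowest p. Members and lists were chosen with earlier results of these data known. Alternatives were DESeq2 1.42.0, upper-quartile scaling, library size alone, other filters, all 8 samples, a replicate block, counts summed over a locus, each replicate left out and, chosen after seeing *Tgfbr1*, both replicate 3 samples left out. Of the genes listed, 1 is not reported here. *Junb* has 2 entries, of which the larger was used. The lowest chi-square per degree of freedom between a pair of samples was 101, so no libraries were duplicates.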

Additional observations from a re-analysis of the deposited data

Results flagged for a closer look

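Among the members and named pathway genes, 4 of 56 groups of 4 samples held a sample far from the other 3, by Dixon's criterion at 95%, where about 1 in 20 groups, or 2.8, would be expected by chance. *Acvr2b* was 8.88 CPM in female replicate 2 and 1.08 to 2.18 CPM in the other females. It was also apart in male replicate 1, with 6.55 CPM where males 2 to 4 had 1.02 to 1.77 CPM. For *Id1*, male replicate 2 had 212 CPM and the remaining 3 males 63.9 to 72.7 CPM. For *Tgif1*, male replicate 3 had 66.4 CPM and the remaining 3 males 71.4 to 72.4 CPM, a small step beside the female mean of 116 CPM. No member had such a sample: *Tgfbr1* in female replicate 3 was apart from the other females, by a gap that did not meet the criterion.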

How the results depend on the processing

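The number of genes past the threshold, 471, was 2329 with DESeq2, 808 with library size alone, 177 without a filter, 67 with all 8 samples, 0 with a replicate block (2954 at an unadjusted p under 0.05), 35 without both replicate 3 samples and 88 to 171 when a replicate was left out. The pathway genes past it, 7, were 19, 12, 5, 4, 0, 1 and 3 to 4 in these fits. Members past it were 1 with DESeq2, library size alone and at least 10 counts in every sample, each time *Smad3* (log2 fold change -0.97, -1.20 and -0.98), and 0 in the others. *Smad3* stayed lower in males in all 16 alternatives (-1.20 to -0.83), as did *Smad4* (-0.81 to -0.41) and *Smad6* (-1.22 to -0.49). Library size alone turned *Smad1* (-0.22), *Smad2* (-0.17), *Tgfbr2* (-0.0848) and *Tgfbr3* (-0.0138). It also moved the median of all genes from -0.03 to -0.24 and the share of calls higher in males from 42.0% to 16.5%. Relative to that median, *Smad1*, *Smad2* and *Tgfbr2* were at 0.03, 0.08 and 0.16, and *Smad3* at -0.95. All 8 samples turned *Smad2* (-0.0036) and *Smad7* (0.28). Leaving out a replicate gave ranges that cross 0 for *Smad1* (-0.047 to 0.0825), *Smad2* (-0.0568 to 0.17), *Smad5* (-0.44 to 0.0701), *Smad7* (-0.25 to 0.15), *Tgfbr1* (-1.45 to 0.0912), *Bmpr1a* (-0.27 to 0.12), *Id1* (-1.01 to 0.39) and *Id2* (-0.76 to 0.0265). The replicate block turned *Bmpr1a* (0.0063), *Id1* (0.17) and *Id2* (0.0115), and no other member or named pathway gene. Deviations of same-numbered samples from their group means, over all genes tested, had correlations of -0.0193, -0.00823 and -0.000805. *Tgfbr1* was nonetheless low in replicate 3 of both sexes, and whether same-numbered samples share a preparation was not tested. With library size alone, the male mean of *Smad1* was 38.2 CPM, and with the longest transcript its level was 11.0 CPM per kilobase. The cause of these shifts was not tested. Depth limited *Smad9* and *Smad6* most, with as few as 38 counts in a compared sample.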

Other observations

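*Smurf1*, a ubiquitin ligase that acts on SMADs and was chosen after its values were seen, also varied widely between samples, but not in the same samples as *Tgfbr1*. It was 39.1, 0.0488, 28.7 and 0.0865 CPM in female replicates 1 to 4, where the values of replicates 2 and 4 are under the floor of 3 counts, and 21.7, 20.7 and 29.2 CPM in male replicates 2 to 4. Its relative *Smurf2* was 42.5 to 56.7 CPM in the females and 45.7 to 53.2 CPM in these males.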
